A study of Mus musculus with 5 samples.

Results

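The 39 genes described here encode proteins of the cardiac sarcomere, its M-band, its Z-disc and the thin filament, and they were taken by symbol from a list of sarcomere genes. All 39 were among the 17818 gene symbols measured. Their messenger RNA was measured in the hearts of male mice, all of which had been given a bone marrow transplant. Tet2 protein oxidises the methylated cytosines of DNA, and marrow lacking 1 copy of it is used as a model of clonal hematopoiesis. There were 5 libraries: 1 WT library given vector, 2 Tet2+/- libraries given vector and 2 Tet2+/- libraries given Oridonin, a plant diterpenoid, all from hearts taken 12 months after transplantation with 2 months of treatment. The sample titles instead say 1 month for replicate 1 and 2 months for replicate 2, so a difference in treatment time between replicates cannot be told apart from the spread between them. No label describes the state of the host's own blood cells or the age at transplantation, and the labels do not say whether a library came from 1 heart or several. The libraries are called here WT, vector 1 and 2, and oridonin 1 and 2. The titles give WT or Tet2+/- for a bone marrow transplantation mouse. They do not say whether the donor marrow or the heart itself carried the genotype. The p-values below measure the spread between these libraries only, because no label ties a replicate to a separate animal.

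The sarcomere is the repeating unit of striated muscle. Thick filaments of myosin, held in register at the M-band, pull on thin filaments of actin that are anchored at the Z-disc, and titin spans from the Z-disc to the M-band. Troponin and tropomyosin on the thin filament make the pull depend on calcium, while Z-disc proteins pass force to the cytoskeleton and carry signals about load. In the adult mouse ventricle the alpha myosin heavy chain (Myh6) and cardiac actin (Actc1) are the main filament forms, and their relatives Myh7 and Acta1 are known as genes of the fetal and the stressed heart.

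Levels are in CPM, the usual unit of counts scaled to the library total, from 14574823 to 15535778 counts per library, and all 39 members were at 7.24 CPM or more in every library. A count of 3 would correspond to 0.193 to 0.206 CPM. Transcripts of mitochondrial DNA made up 23.6% of the WT counts and 26.8% to 30.2% of those in Tet2+/- libraries. The tissue label was met by the heart muscle markers: 10 listed genes such as Ryr2, Atp2a2 and Pln summed to 31501 CPM in WT and to 23731 to 25721 CPM in the 4 Tet2+/- libraries. Vector 1 stood apart. Its 9 atrial markers summed to 1187 CPM against 65.8 to 132 CPM in the other 4 libraries, each of the 9 was highest there, and the atrial light chain Myl7 had 2739 counts against at most 1. Macrophage markers were also highest in vector 1, at 572 CPM against 310 to 360 CPM. Fibroblast markers were at 1475 and 1612 CPM in the vector libraries against 794 to 948 CPM in the others. Fat cell markers summed to 21.4 CPM in vector 1 against 0.410 to 7.20 CPM elsewhere, smooth muscle markers to 1836 to 2493 CPM and endothelial markers to 1358 to 1651 CPM. Red cell markers were at 249.9 and 148 CPM with vector against 322 to 390 CPM in the other libraries. Markers of fast skeletal muscle summed to 13.6 to 58.8 CPM, with 11 of 13 in the table, most of it from Myl1, and Myh1 and Myh2 had at most 1 count in any library. In bulk RNA, fewer cells of a type and less RNA per cell cannot be told apart.

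The 39 members together held 7.86% of all counts in WT, 8.48% and 8.34% with vector and 8.75% and 9.28% with oridonin. Actc1 alone was at 5211 CPM in WT and at 12753 to 14162 CPM in the Tet2+/- libraries. By sign, 19 members were higher and 20 lower in vector over WT, and 23 higher and 16 lower in oridonin over WT. The larger share with vector is thus not a rise of the members as a group. Per kilobase of exon, the thin and thick filament subunits led. Actc1 averaged 7966 CPM per kb over the 5 libraries, the regulatory light chain Myl2 4776, troponin T (Tnnt2) 4602, the essential light chain Myl3 4589 and troponin I (Tnni3) 4397 CPM per kb. Myl2, Tnnt2, Myl3 and Tnni3 follow each other closely, and their ranges over the libraries overlap. Myl2 ran from 3713 to 5622 CPM per kb and Tnni3 from 3833 to 5027 CPM per kb. Actc1 stood clear of Tnni3 in the 4 Tet2+/- libraries, at 8658 CPM per kb or more, but not in WT, where it was at 3537 CPM per kb. Myh6 averaged 2990 CPM per kb. At the low end were the intermediate filament protein synemin (Synm) at 1.59, the fast-muscle myosin-binding protein Mybpc2 at 3.22 and the slow myosin Myh7b at 4.62 CPM per kb.

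The first comparison asked how the Tet2+/- libraries differed from the WT library under vector. Cardiac actin was the member with the smallest p: Actc1 was 2.61-fold higher, and the LIM-domain adaptor Fhl2, which binds titin, was 2.01-fold higher. The M-band protein Myom2 was 2.54-fold lower and the Z-disc-edge scaffold Cmya5 2.11-fold lower. At a false discovery rate (FDR) of 0.05, 0 of the 39 members and 0% of the 12734 genes tested were called (limma, Benjamini-Hochberg adjustment over all genes). At an unadjusted p under 0.05 there were 9 members of 39, against 9.59% of all genes. Higher were Actc1 and Fhl2, 2 members against a background of 5.06% of genes, and lower were Myom2, Cmya5, Nrap, Myom1, Trim63, Mylk3 and Xirp1, 7 members against 4.53%. Actc1 and Fhl2 have 1473 and 1897 exon bases. The lower members have 3934 or more, except Trim63 with 1886, and the part of length in this split was not tested. The median log2 fold change of the members was -0.12 (19 higher, 20 lower), beside 0.00 over all genes, and it was -0.17 without vector 1 and -0.078 without vector 2. On the columns as deposited, which draw replicates together, 13 members were called, beside 2312 of the 12734 genes.

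Actc1 (chromosome 2, 114047282 to 114053548, minus strand, GRCm38) was at 5211 CPM in WT, 14162 and 13073 CPM with vector and 12753 and 13470 CPM with oridonin. All 4 Tet2+/- libraries were above WT, and the vector and oridonin libraries overlapped. Vector exceeded WT by 1.39 on the log2 scale (standard error, SE, 0.16, limma, unadjusted p = 0.000116, adjusted p = 0.264), and 1.33 with vector 1 left out. Actc1 and Acta1 have nearly the same coding sequence, and no label says how reads that fit both were counted. Fhl2 (chromosome 1, 43123074 to 43196984, minus strand) was at 1094 CPM in WT, 2028 and 2390 CPM with vector and 1891 and 2088 CPM with oridonin. Again WT lay below all 4 others. Its log2 fold change was 1.01 (SE 0.19, limma, unadjusted p = 0.00168, adjusted p = 0.324), and 1.13 without vector 1.

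On the lower side, Myom2 (chromosome 8, 15057653 to 15133541, plus strand), the M-protein that links myosin filaments, was at 1625 CPM in WT, 615 and 663 CPM with vector and 552 and 752 CPM with oridonin. WT was above every Tet2+/- library. The log2 fold change was -1.35 (SE 0.23, limma, unadjusted p = 0.00115, adjusted p = 0.324). Its relative myomesin, Myom1 (chromosome 17, 71002633 to 71126856, plus strand), was at 1598 CPM in WT, 1130.5 and 934 CPM with vector and 1203 and 1350 CPM with oridonin, with a log2 fold change of -0.64 (SE 0.20, limma, unadjusted p = 0.0187, adjusted p = 0.459). WT was again the highest library. Cmya5 (chromosome 13, 93040713 to 93144724, minus strand), also called myospryn, was at 1133 CPM in WT, 588 and 492 CPM with vector and 516 and 675 CPM with oridonin. Its log2 fold change was -1.07 (SE 0.24, limma, unadjusted p = 0.00383, adjusted p = 0.359). Of its 11850 exon bases, 2570 overlap genes on the other strand. No label states whether strand was kept, so such reads cannot be told apart.

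Nrap (chromosome 19, 56320035 to 56390037, minus strand), a scaffold of myofibril assembly, was at 787 CPM in WT, 428 and 457 CPM with vector and 536 and 636 CPM with oridonin. The 3 groups did not overlap, and the oridonin libraries lay between the other two groups. The log2 fold change of vector over WT was -0.83 (SE 0.20, limma, unadjusted p = 0.00511, adjusted p = 0.363). Mylk3 (chromosome 8, 85324303 to 85386345, minus strand), the cardiac kinase of the myosin regulatory light chain, was at 854 CPM in WT, 600.0 and 400 CPM with vector and 497 and 478 CPM with oridonin, a log2 fold change of -0.80 (SE 0.27, limma, unadjusted p = 0.0245, adjusted p = 0.474). Trim63 (chromosome 4, 134315120 to 134329629, plus strand), the ubiquitin ligase MuRF1 that marks sarcomere proteins for breakdown, was at 221 CPM in WT, 139 and 152 CPM with vector and 150 and 136 CPM with oridonin. WT was the highest library for both genes. The log2 fold change of Trim63 was -0.60 (SE 0.20, limma, unadjusted p = 0.0234, adjusted p = 0.471). The heart muscle marker sum given above was likewise highest in WT, but its members were mixed: 4 of the 10 were highest in WT (Atp2a2, Ryr2, Cacna1c and Nkx2-5) and 2 were lowest there (Pln and Ckm). Atp2a2, at 18224 CPM in WT and 10316 to 14279 CPM in the others, led the sum. The part of the sum in these lower values was not tested.

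**Figure D1:**
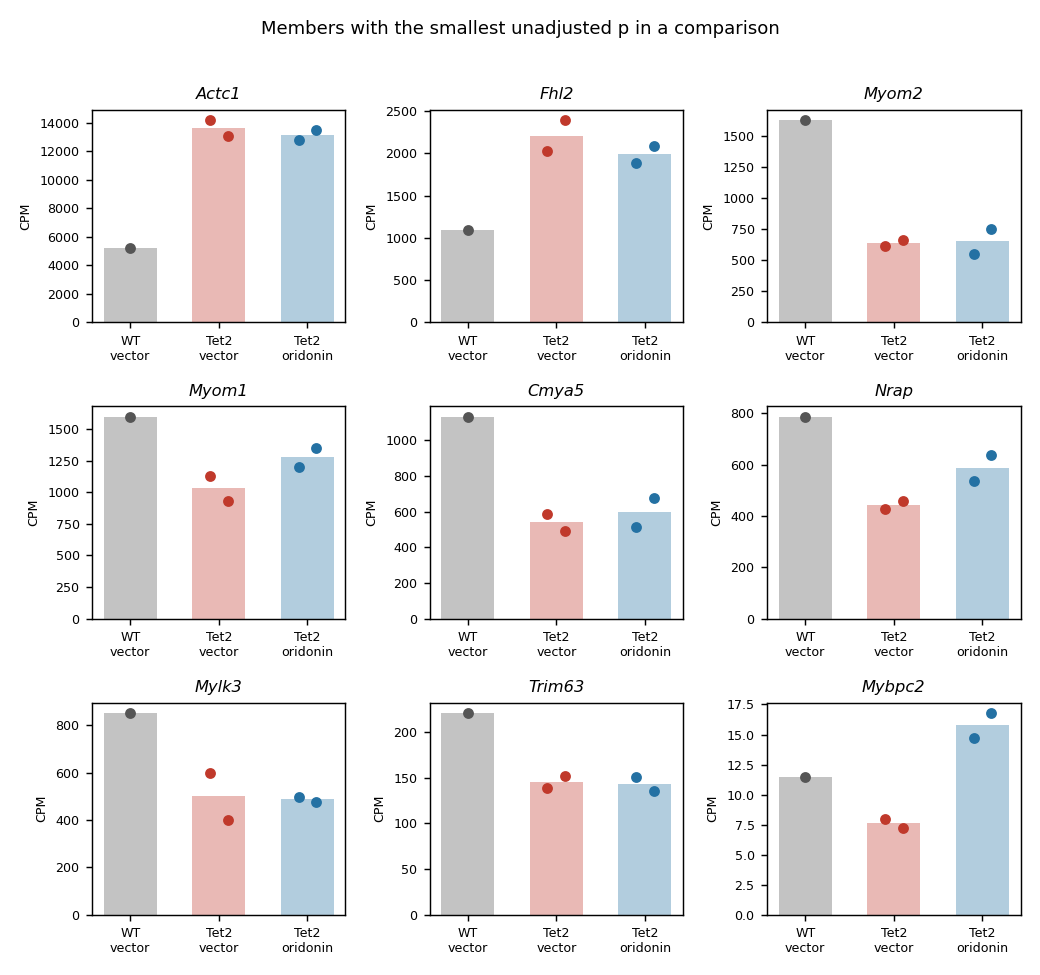
Bars give the group mean and points the single libraries, in CPM on axes that start at 0, for 9 members with the smallest unadjusted p in a comparison. Actc1 and Fhl2 sit lower in the WT library than in all 4 Tet2+/- libraries, Myom2, Myom1, Cmya5, Nrap, Mylk3 and Trim63 sit higher there, and Mybpc2 is higher in both oridonin libraries than in both vector libraries.

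The upstream sequence of 4 members is shown because Actc1 and Fhl2 were the members on the higher side in vector hearts, Acta1 is the actin relative of Actc1 that varied most between replicates, and Cmya5 was among the lowest. RefSeq promoter windows (GRCm38.p6) were found for 35 of the 39 members, and Myom2, Tcap, Xirp1 and Cryab had no entry in the table used. Each line holds the 250 bases before a transcription start, on the strand of the gene, 5′ to 3′. Capitals mark matches to the CArG box (a pair of C, 6 of A or T, a pair of G), which serum response factor is known to bind in muscle genes, to CATTCC, the core that TEAD factors bind, to the MEF2 site, or to TATAAA. Both strands were searched.
Actc1, chr2:114052876-114053125, minus strand: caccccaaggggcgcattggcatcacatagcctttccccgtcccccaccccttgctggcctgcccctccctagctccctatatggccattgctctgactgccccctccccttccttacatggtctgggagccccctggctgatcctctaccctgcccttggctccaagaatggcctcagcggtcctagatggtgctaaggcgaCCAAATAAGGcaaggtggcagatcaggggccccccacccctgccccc
Acta1, chr8:123894776-123895025, minus strand: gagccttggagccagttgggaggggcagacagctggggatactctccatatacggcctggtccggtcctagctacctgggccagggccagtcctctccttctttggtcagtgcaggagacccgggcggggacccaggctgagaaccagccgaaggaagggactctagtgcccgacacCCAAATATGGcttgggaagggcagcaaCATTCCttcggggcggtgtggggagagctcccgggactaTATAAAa
Fhl2, chr1:43163962-43164211, minus strand: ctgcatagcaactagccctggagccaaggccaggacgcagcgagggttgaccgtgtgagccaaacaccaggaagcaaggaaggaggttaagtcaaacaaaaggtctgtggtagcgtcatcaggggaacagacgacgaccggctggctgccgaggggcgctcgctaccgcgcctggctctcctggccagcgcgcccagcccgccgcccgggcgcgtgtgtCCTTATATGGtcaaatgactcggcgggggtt
Cmya5, chr13:93144725-93144974, minus strand: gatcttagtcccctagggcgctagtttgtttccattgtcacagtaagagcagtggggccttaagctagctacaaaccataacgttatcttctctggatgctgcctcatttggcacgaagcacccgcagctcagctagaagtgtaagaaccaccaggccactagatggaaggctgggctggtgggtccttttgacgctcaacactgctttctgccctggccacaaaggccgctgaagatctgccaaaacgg
The CArG match begins 47 bases before the start site in Actc1, 73 in Acta1 and 31 in this Fhl2 window, which is 1 of 2 for the gene, and the Cmya5 window holds none of the 4 motifs. The other Fhl2 window (chr1:43196762-43197011, not printed) has a CArG match beginning 96 bases before its start site. It also has a MEF2 site beginning at 31 and TATAAA at 28, and 223 of its 250 bases are annotated as exon. Acta1 was at 148 CPM in WT, 63.3 and 431 CPM with vector and 296 and 242 CPM with oridonin, with WT inside the range of the others. Among members with a window, 7 of 35 (20%) had a CArG box in at least 1 window, against 1.62% of 27025 genes: Acta1, Actc1, Fhl2, Ldb3, Myl3, Myom1 and Nebl. CATTCC stood in 14 members (40%, against 14.4% of genes), the MEF2 site in 6 (17.1%, against 3.42%) and TATAAA in 6 (17.1%, against 14.3%). MEF2 and TATAAA matches can overlap. Myom1, with a CArG box, was lower in vector hearts than in WT while Actc1 and Fhl2 were higher. A match is a description of letters only.

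By role, the single WT library lay outside the range of the 4 Tet2+/- libraries for 20 of the 39 members, against 51.4% of all genes, so the members did not stand apart in this count. WT was the lowest library for 9 members (24.2% of all genes): Myl2, Mybpc3, Actc1, Tnni3, Tpm1, Tcap, Xirp2, Synpo2l and Fhl2. It was the highest for 11 (27.2% of all genes): Mylk3, Tnnt2, Myom1, Myom2, Nrap, Des, Myoz2, Cmya5, Xirp1, Lmod2 and Trim63. On the thick filament, 5 of 8 members had a higher vector mean than WT and 3 a lower one, with log2 fold changes from -0.80 (Mylk3) to 0.74 (Myh7). On the thin filament the split was also 5 and 3, from -0.37 (Lmod2) to 1.39 (Actc1). Tropomyosin (Tpm1) was at 6901 CPM in WT, 8961 and 9091 CPM with vector and 8651 and 7755 CPM with oridonin, with WT the lowest (limma, unadjusted p = 0.0548 for vector over WT). Of the 15 genes of the Z-disc and its edge, 7 were higher and 8 lower. Titin (Ttn) was at 2995 CPM in WT, 3380 and 1550 CPM with vector and 2114 and 3384 CPM with oridonin, so that the groups overlapped fully. Myh6 was at 19850 CPM in WT, 20214 and 12264 CPM with vector and 16975 and 22083 CPM with oridonin, and Nebl at 219 CPM in WT, 343 and 145 CPM with vector and 144 and 253 CPM with oridonin. As for Ttn, the replicates of each group lay far apart and WT was inside their range.

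Other structural members are given by their ranges, and none had an unadjusted p under 0.05 in any comparison. The cardiac myosin-binding protein Mybpc3, which trims the reach of myosin heads, was at 2575 CPM in WT and between 2644 and 3375 CPM in the Tet2+/- libraries. Alpha-actinin (Actn2), the crosslinker of actin at the Z-disc, ran from 1468 to 1845 CPM with WT at 1777 CPM, and the LIM-domain protein Ldb3 from 785 to 977 CPM with WT at 905 CPM. Pdlim5, another Z-disc adaptor, had 608 CPM in WT and 577 to 703 CPM in the others. Desmin (Des), the intermediate filament that ties Z-discs together, was at 2122 CPM in WT, 1387 and 1881 CPM with vector and 1695 and 1545 CPM with oridonin. Its log2 fold change of vector over WT was -0.39 (limma, unadjusted p = 0.138). The chaperone Cryab was at 1033 CPM in WT, 964 and 1461 CPM with vector and 1342 and 1426 CPM with oridonin, and WT lay within that range.

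Of the light chains and troponins, WT was the lowest library for Myl2 and Tnni3, the highest for Tnnt2 and within the range of the others for Myl3 and Tnnc1. Myl2 was at 4616 CPM in WT, 4952 and 6988 CPM with vector and 6819 and 6310 CPM with oridonin. Myl3 was at 4552 CPM in WT, 3910 and 5765 CPM with vector and 5640 and 4615 CPM with oridonin. Vector 1 had the least Myl3. Tnni3, the inhibitory subunit of troponin, was at 3496 CPM in WT, 3794 and 4259 CPM with vector and 4584 and 3916 CPM with oridonin. Troponin C (Tnnc1), the calcium sensor, was at 1411 CPM in WT, 1336 and 2109 CPM with vector and 1905 and 1780 CPM with oridonin. In all of Myl2, Myl3, Tnni3 and Tnnc1 vector 1 was below vector 2, and the vector and oridonin groups overlapped. The slow myosin Myh7b was at 24.4 CPM in WT, 27.9 and 27.3 CPM with vector and 21.4 and 41.4 CPM with oridonin. Tropomodulin (Tmod1), which caps the thin filament, was at 180 CPM in WT, 217 and 119 CPM with vector and 173 and 207 CPM with oridonin. Both had WT inside the range of the Tet2+/- libraries.

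At the Z-disc, telethonin (Tcap), which joins titin ends, was at 1183 CPM in WT, 1299 and 1663 CPM with vector and 2099 and 1437 CPM with oridonin. Csrp3, a LIM protein of the Z-disc, was at 1025 CPM in WT, 936 and 1280 CPM with vector and 1184 and 1141 CPM with oridonin. Synpo2l, an actin-binding relative of myopodin, was at 97.6 CPM in WT, 121 and 100 CPM with vector and 118 and 132 CPM with oridonin. WT was the lowest library for Tcap and Synpo2l but not for Csrp3. Myoz2, which tethers calcineurin at the Z-disc, was at 943 CPM in WT, 734 and 810 CPM with vector and 815 and 835 CPM with oridonin. Xirp1 was at 231 CPM in WT, 160 and 130 CPM with vector and 131 and 185 CPM with oridonin. WT was the highest library for both Myoz2 and Xirp1. Synm was at 10.3 CPM in WT, 14.6 and 8.28 CPM with vector and 12.4 and 17.6 CPM with oridonin. The muscle methyltransferase Smyd1 acts in myofibril assembly. It was at 504 CPM in WT, 514 and 418 CPM with vector and 515 and 555 CPM with oridonin. For Smyd1 and Synm, WT lay inside the range of the others. Of these 7 genes Xirp1 alone had an unadjusted p under 0.05 in a comparison, that of vector over WT (limma).

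**Figure D2:**
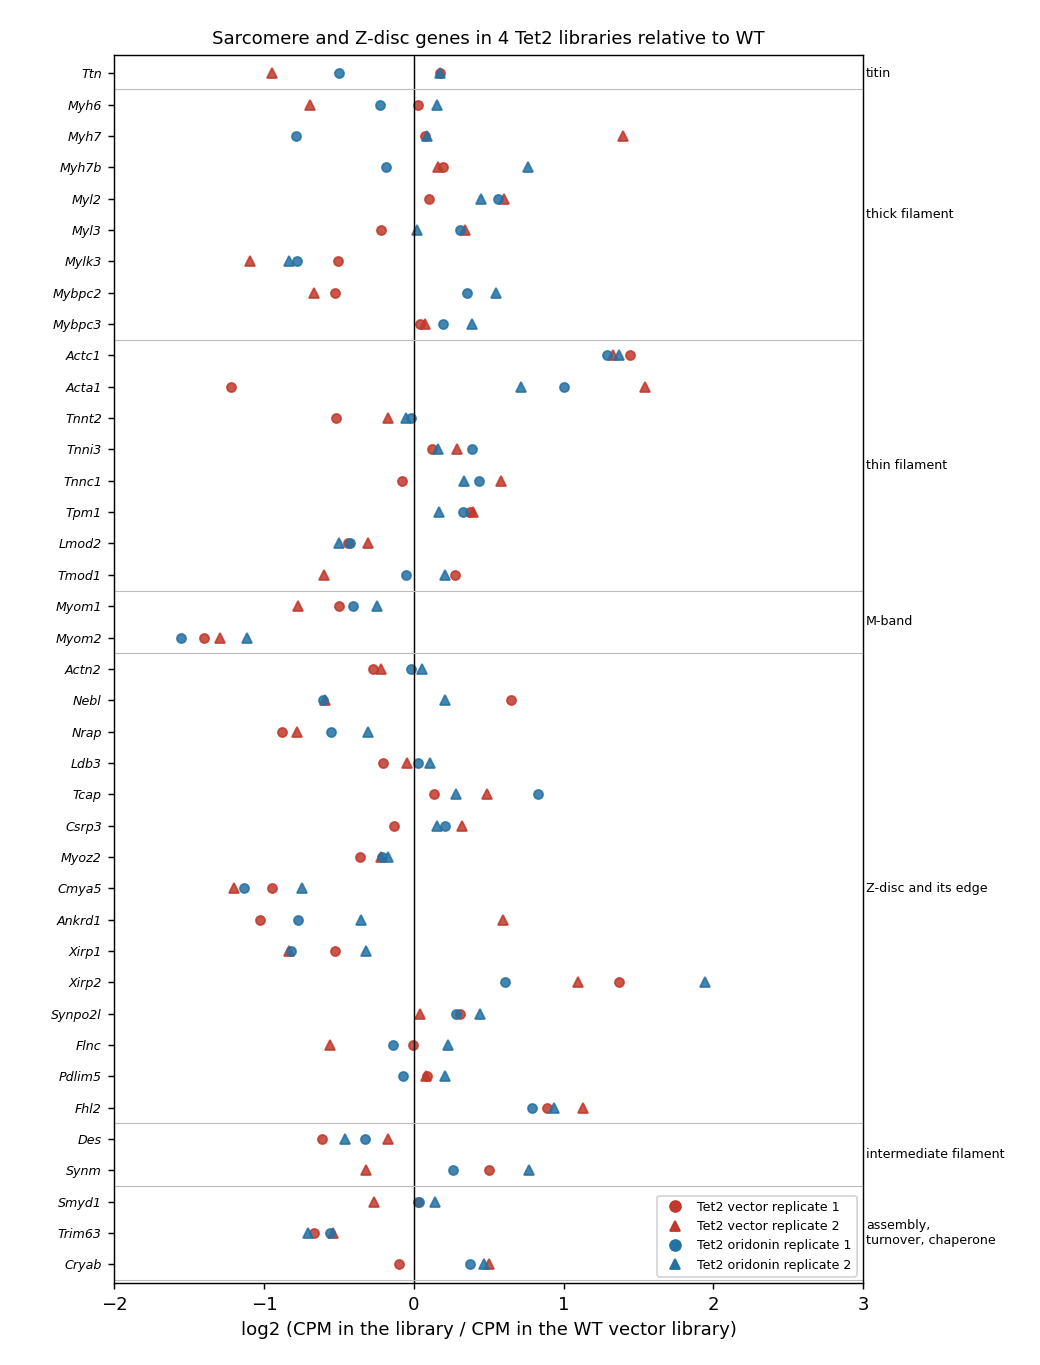
Each row is a member, grouped by role, and each point is the log2 ratio of its CPM in a Tet2+/- library to its CPM in the WT library (vertical line at 0). Actc1, Fhl2 and Xirp2 have all 4 points to the right and Myom2, Cmya5, Nrap and Mylk3 all 4 to the left, while Ttn, Acta1, Ankrd1 and Nebl have points on both sides.

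The next comparison asked how the oridonin libraries differed from the vector libraries among those labelled Tet2+/-. The differences were small: the median log2 fold change of the members was 0.13 and the largest were those of Mybpc2, which was 2.06-fold higher with oridonin, and Myh7, which was 2.12-fold lower. At an FDR of 0.05, 0 members and 0% of all genes were called (limma, Benjamini-Hochberg adjustment, smallest adjusted p of a member 1.0). At an unadjusted p under 0.05 there were 2 members, Mybpc2 and Nrap, against 2.6% of all genes, both higher with oridonin (0.668% of all genes), and 0 members lower (1.93% of all genes). In sign, 29 members were higher and 10 lower, where all genes had 5120 higher and 7614 lower and a median of -0.05. Scaling by median of ratios gave 33 higher and 6 lower. With 1 library left out the split was 23 and 16 (no vector 1), 26 and 13 (no vector 2), 27 and 12 (no oridonin 1) or 25 and 14 (no oridonin 2), and the median ran from 0.067 without vector 2 to 0.24 without oridonin 1. On the columns as deposited 1 member was called, beside 76 of the 12734 genes.

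Mybpc2 (chromosome 7, 44501699 to 44524656, minus strand), the myosin-binding protein of fast skeletal muscle, was at 11.5 CPM in WT, 7.98 and 7.24 CPM with vector and 14.7 and 16.8 CPM with oridonin. The counts behind these were 111 to 245 in the Tet2+/- libraries, the groups did not overlap and WT lay between them. The log2 fold change was 1.05 (SE 0.23, limma, unadjusted p = 0.00359, adjusted p = 1.0). Skeletal muscle markers, which summed to 58.8 and 13.6 CPM with vector and 29.2 and 33.3 CPM with oridonin, overlapped between these groups. Most of each sum was Myl1, at 52.5 and 9.06 CPM with vector and 22.2 and 22.0 CPM with oridonin. Casq1 did not overlap, at 3.09 and 1.37 CPM with vector and 4.44 and 8.71 CPM with oridonin. The other markers were at 1.04 CPM or less in every library, and Tnnt3 was lower in both oridonin libraries. Nrap, given above, had a log2 fold change of 0.40 (SE 0.16, limma, unadjusted p = 0.0448, adjusted p = 1.0). It remained below WT in both oridonin libraries. Myh7 was at 122 CPM in WT, 128 and 320 CPM with vector and 70.7 and 129 CPM with oridonin, and the groups overlapped (log2 fold change -1.08, SE 0.48, limma, unadjusted p = 0.0644). Without vector 1 the value was -1.74 and without vector 2 it was -0.42.

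Of the next members in order of p, Actn2 was at 1468 and 1525 CPM with vector and 1752 and 1845 CPM with oridonin (log2 fold change 0.27, SE 0.14). Tnnt2, which anchors the troponin complex on tropomyosin, was at 4465 and 5675 CPM with vector and 6331 and 6179 CPM with oridonin, with WT above all at 6409 CPM (log2 fold change 0.31, SE 0.16). For both genes the oridonin libraries lay above the vector libraries. The same was true of Myom1 (log2 fold change 0.31, SE 0.16) and of Mybpc3, which was at 2644 and 2706 CPM with vector and 2946 and 3375 CPM with oridonin (0.24, SE 0.14). Filamin C (Flnc), an actin crosslinker at the Z-disc edge, was at 302 and 205 CPM with vector and 275 and 355 CPM with oridonin (0.33, SE 0.24), and its groups overlapped. The unadjusted limma p-values of these 5 genes ran from 0.0989 to 0.224.

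Counted over all members, the oridonin libraries lay wholly above the vector libraries for 9 (8.37% of all genes): Mybpc2, Mybpc3, Actn2, Tnnt2, Myom1, Nrap, Ldb3, Myoz2 and Smyd1. They lay wholly below for 1, Tpm1 (17.8% of all genes). In either direction this made 10 of 39, or 25.6%, beside 26.1% of all genes. For the 8 members with the smallest p in vector over WT, the log2 fold change of oridonin over vector was -0.05 for Actc1, 0.01 for Myom2, -0.15 for Fhl2, 0.13 for Cmya5, 0.40 for Nrap, 0.31 for Myom1, -0.03 for Trim63 and -0.01 for Mylk3. The same vector libraries enter both comparisons with opposite sign, which pushes members picked in the first toward an apparent reversal in the second. These values are therefore not a separate test. For 33 of 39 members (84.6%, beside 83% of all genes) the larger of the within-group replicate differences exceeded the oridonin minus vector difference. The mitochondrial share was 26.8% and 29.7% with vector and 30.2% and 28.2% with oridonin.

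The oridonin libraries were then set beside the WT library. This comparison shares its WT library with the first and its oridonin libraries with the second, so its values are not a separate test of either. At an FDR of 0.05, 0 members and 0% of all genes were called (limma). At an unadjusted p under 0.05 there were 8 members (6.21% of all genes), 3 higher (2.69%) and 5 lower (3.53%). On the columns as deposited 8 members were called, beside 996 of the 12734 genes. Actc1 and Xirp2 were called without oridonin 1, and Actc1 and Myom2 without oridonin 2. The median of the members was 0.07 (23 higher, 16 lower), beside -0.06 over all genes. Without oridonin 2 it was -0.019 (18 higher, 21 lower) and without oridonin 1 it was 0.16 (27 higher, 12 lower), so its sign rested on 1 library. Scaling to the total without mitochondrial genome genes moved the medians of members and of all genes together, to 0.18 and 0.05 for oridonin over WT and to -0.029 and 0.10 for vector over WT. Actc1 had a log2 fold change of 1.33 (SE 0.16, limma, unadjusted p = 0.000145, adjusted p = 0.539). Fhl2 was at 0.86, Myom2 at -1.33, Cmya5 at -0.94, Trim63 at -0.63 and Mylk3 at -0.81, with adjusted p-values from 0.546 to 0.763 (limma).

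The other two members on this side of p were a Z-disc-edge and a thin filament gene. Xirp2, an actin-binding protein of the intercalated disc, was at 123 CPM in WT, 318 and 263 CPM with vector and 188 and 474 CPM with oridonin. WT was the lowest library, but oridonin 1 and 2 differed from each other by -1.33 on the log2 scale. The log2 fold change of oridonin over WT was 1.28 (SE 0.51, limma, unadjusted p = 0.0466, adjusted p = 0.791), and that of vector over WT was 1.23 (limma, unadjusted p = 0.0524). Oridonin over WT was 1.94 without oridonin 1 and 0.61 without oridonin 2. Lmod2, which nucleates actin and sets thin filament length, was at 694 CPM in WT, 511 and 561 CPM with vector and 515 and 489 CPM with oridonin. WT was the highest library, with a log2 fold change of -0.47 for oridonin (SE 0.18, limma, unadjusted p = 0.0409, adjusted p = 0.791).

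Differences between replicates were of the size of those between groups. The median absolute difference over the members was 0.30 (log2) between the vector replicates and 0.20 between the oridonin replicates, against 0.18 between the oridonin and vector means and 0.31 between vector and WT. Acta1 differed most, by -2.77 (vector 1 minus vector 2), followed by the stress-responsive titin-binding protein Ankrd1 at -1.62 and Myh7 at -1.32. Ankrd1 was at 1010 CPM in WT, 495 and 1523 CPM with vector and 590 and 790 CPM with oridonin. Vector 2 was thus the highest library for Ankrd1, Acta1 and Myh7, 3 genes that are known to rise in the stressed heart. Vector 1, the library with the atrial markers, was the lowest for Ankrd1 and Acta1. These genes were named for their replicate differences, and stress of the hearts was not tested. The differences followed transcript length. Ttn and Nebl, the nebulin relative of the cardiac Z-disc, had log2 differences of 1.12 and 1.24 for vector 1 minus vector 2, and of -0.68 and -0.81 for oridonin 1 minus oridonin 2.

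Over the 39 members, Spearman's rho of summed exon length with the replicate difference was 0.68 for vector 1 minus 2 and -0.81 for oridonin 1 minus 2. Over 12316 genes with a length the values were 0.55 and -0.39. These are descriptions across genes that share the same libraries, and genes are not independent replicates. Without the 5 longest members, rho was 0.59 and -0.75 (n = 34). The 5 members over 8 kb (Ttn, Nebl, Cmya5, Xirp2 and Flnc) were all higher in vector 1 than vector 2 and all lower in oridonin 1 than oridonin 2, with medians of 0.56 and -0.68. Of the 14 members under 2 kb, 1 was higher in vector 1 and 10 were higher in oridonin 1. The one exception in the vector libraries was Actc1, which was chosen for mention after its values were seen. The direction in vector was opposite to that in oridonin for 28 of 39 members (71.8%), beside 68.5% of all genes. Up in vector 1 and down in oridonin 1 were 16 members (45.2% of all genes), and the reverse held for 12 (23.3% of all genes). Group differences followed length less: rho was -0.25 for vector over WT, 0.04 for oridonin over vector and -0.28 for oridonin over WT, beside -0.31, 0.14 and -0.29 over all genes. What in the libraries moves with length was not tested.

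**Figure D3:**
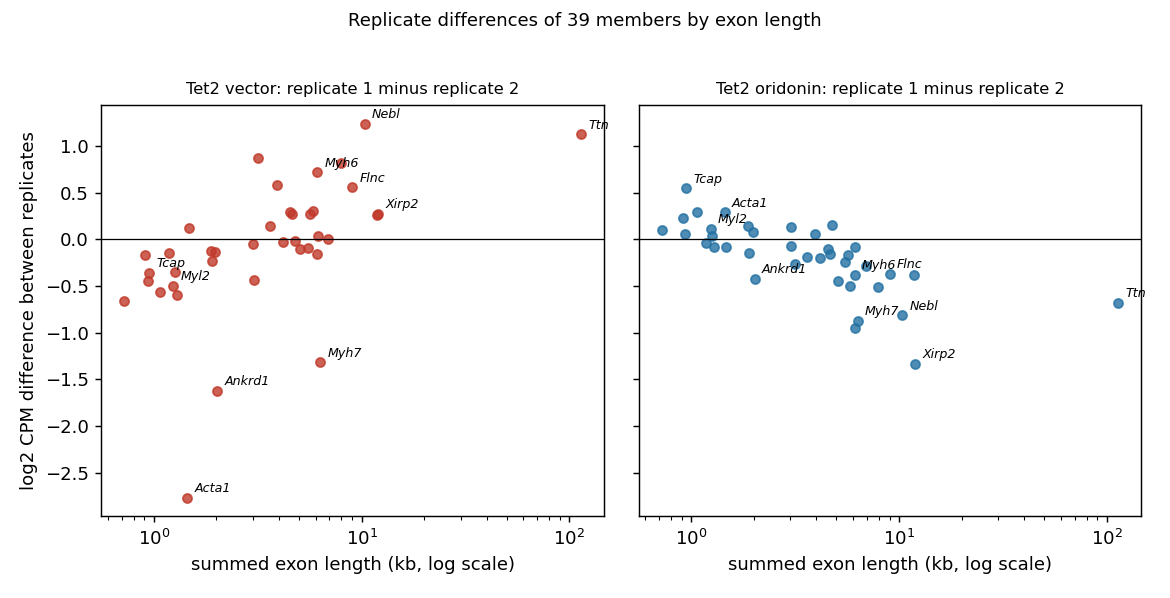
Each point is a member, with its summed exon length in kb on a log axis and the log2 CPM difference of replicate 1 minus replicate 2 on the vertical axis, for the vector libraries (left) and the oridonin libraries (right). Long members such as Ttn, Nebl and Flnc lie above 0 on the left and below 0 on the right, and Acta1 at -2.77 is the lowest point on the left.

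Pairs of related members were compared as a ratio within each library, which does not depend on the library total. The myosin pair was steady in 4 of 5 libraries: Myh7 made up 0.591% of Myh6 plus Myh7 per length in WT, 0.611% and 2.47% with vector and 0.402% and 0.564% with oridonin. Vector 2 stood apart. Both genes lie side by side on chromosome 14 (Myh6 at 54941921 to 54966927, Myh7 at 54970684 to 54994626, both on the minus strand) and have similar coding sequences, so how their reads were shared is uncertain. Skeletal actin Acta1 made up 2.81% of Acta1 plus Actc1 per length in WT, 0.453% and 3.25% with vector and 2.31% and 1.80% with oridonin. Here vector 1 was the low one, and WT lay within the range.

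For the M-band and the Xin proteins, WT lay outside the other libraries. Myom2 made up 53.2% of Myom2 plus Myom1 per length in WT, 37.8% and 44.2% with vector and 33.9% and 38.4% with oridonin. Xirp2 made up 20.6% of Xirp2 plus Xirp1 in WT, 49.2% and 49.7% with vector and 41.1% and 55.5% with oridonin. The log2 ratio of Xirp2 to Xirp1 was -0.91 in WT and 0.52 to 1.36 in the Tet2+/- libraries. The log2 ratio of Mybpc2 to Mybpc3 was -7.80 in WT, -8.37 and -8.54 with vector and -7.64 and -7.65 with oridonin, so the vector libraries were the low ones. The slow skeletal and fetal troponin Tnni1 had 0 to 5 counts in any library beside Tnni3. The atrial light chain Myl7 made up 6.98% of Myl7 plus Myl2 per length in vector 1 and 0 to 0.0023% in the other libraries. With 2 libraries against 2 an exact permutation test could not reach 0.05, and with 1 WT library no test of these ratios was made.

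**Figure D4:**
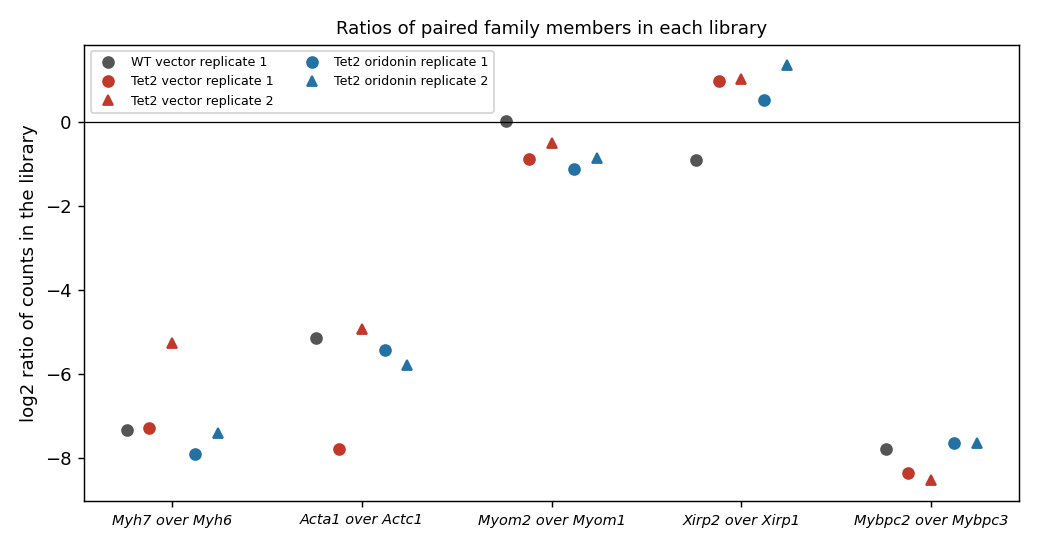
Points give the log2 ratio of counts of the first to the second gene in each of the 5 libraries. Myom2 over Myom1 is highest and Xirp2 over Xirp1 lowest in the WT library, Myh7 over Myh6 is highest in vector 2 at -5.26, and Acta1 over Actc1 is lowest in vector 1 at -7.81.

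Beyond the 39 members, 73 other sarcomere genes were listed, of which 70 were in the table and 60 were tested. In vector over WT, 0 passed the FDR and 14 had an unadjusted p under 0.05 (limma, against 9.59% of all genes), 6 higher (5.06% of all genes) and 8 lower (4.53%), and their median log2 fold change was 0.04. The nonmuscle myosin Myh14 was at 196 CPM in WT, 84.9 and 70.2 CPM with vector and 87.2 and 79.9 CPM with oridonin. Fbxo32, the ubiquitin ligase atrogin-1 that is often measured beside Trim63, was at 234 CPM in WT, 107 and 91.4 CPM with vector and 117 and 93.9 CPM with oridonin. Both were highest in WT, as Trim63 was. Lmod3, a relative of Lmod2, went the other way, with 61.8 CPM in WT, 128 and 121 CPM with vector and 92.2 and 118 CPM with oridonin. The tropomyosin Tpm4 was at 72.9 CPM in WT, 144 and 118 CPM with vector and 117 and 142 CPM with oridonin. The log2 fold changes of vector over WT were -1.34 for Myh14, -1.24 for Fbxo32, 1.01 for Lmod3 and 0.84 for Tpm4, with adjusted p-values from 0.314 to 0.438 (limma). Mybphl, which was in the table but not tested, had 512 counts in vector 1 and 0 to 6 in the other libraries.

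In oridonin over vector, 0 of the 60 passed the FDR and 2 had an unadjusted p under 0.05 (2.6% of all genes), Myot higher and Pdlim3 lower. Myotilin (Myot), a Z-disc crosslinker, was at 110 CPM in WT, 21.1 and 49.9 CPM with vector and 74.7 and 130 CPM with oridonin. Its vector libraries were the lowest, and its log2 fold change was 1.60 (SE 0.45, limma, unadjusted p = 0.0123, adjusted p = 1.0). Pdlim3, an actinin-binding protein, was at 15.5 CPM in WT, 33.7 and 19.0 CPM with vector and 13.7 and 12.3 CPM with oridonin. In oridonin over WT, 0 passed the FDR and 10 had an unadjusted p under 0.05 (6.21% of all genes), 6 higher (2.69%) and 4 lower (3.53%). Ky, a protease-like protein of the Z-disc, was at 9.46 CPM in WT, 23.8 and 16.3 CPM with vector and 27.4 and 30.1 CPM with oridonin, and the small heat shock protein Hspb3 at 3.62 CPM in WT, 7.02 and 6.91 CPM with vector and 8.89 and 7.68 CPM with oridonin. For both genes WT was the lowest library.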

How the data were processed

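Poly-A RNA of heart was sequenced from NEBNext Ultra libraries, per the labels' protocols. The genome build was mm10, per the submitters' processing notes, and the aligner, counter and gene models are not given in the sources used. The authors deposited log2 values for 17818 gene symbols in 5 columns, with 0 columns left without a sample. From the values, each Tet2+/- column is 0.75 of its own log2 CPM (count plus 0.5, over the total) and 0.25 of the other replicate's. Undoing this returned whole counts (within 0.01) for 99.92% to 99.94% of genes, against 9.06% to 10.4% as deposited. Group means stay as they were, while replicate differences grow. The WT column, whole for 33.5% of genes, was used as deposited as 1 sample. Why its other values were not whole is not known. Each comparison with WT thus sets a column as deposited beside recovered libraries.

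Limma 3.58.1 (R 4.3.3) was fitted with trend and robust empirical Bayes, group as the only term, all 5 libraries in 1 fit and 2 residual degrees of freedom. WT has no replicate, so its spread is taken from the Tet2+/- groups. A gene was tested when 2 or more libraries had 1 CPM (12734 genes), and p-values were adjusted by Benjamini-Hochberg over all of them at an FDR of 0.05. Exon lengths and coordinates are from the GENCODE annotation of GRCm38, and promoters from RefSeq. For 13 of 39 members some exon bases overlap a gene on the other strand.

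Members, role groups, pairs and lists were chosen with earlier results of these data known. All members are named by role, with full values for the 8 with the smallest unadjusted p in each comparison and up to 4 other sarcomere genes per comparison. Outside this rule, the genes given by their ranges, Tpm1 and those with large replicate differences were picked after their values were seen. Length classes were also set after the lengths and values were seen. Alternatives covered the deposited values, scaling, filters, offset, weights, the robust option, the groups fitted, a replicate block and leaving out each Tet2+/- library.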

Additional observations from a re-analysis of the deposited data

How the results depend on the processing

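Calls rest on 2 libraries per Tet2+/- group and 1 WT library. Members had over 100 counts in each library, fewest for Mybpc2 at 111 and 124 in the vector libraries, where relative counting error is largest. The 24 named fold changes were recomputed in 336 values. Many settings leave the fold change itself as it was, so its sign could not change there. These are the deposited values, the filters, the robust option, the groups fitted and leaving out a library of the third group. Only the other values could change sign. None changed sign, 309 stayed on the same side of the threshold and 27 passed it: 17 with the deposited values, 2 with only the groups compared, and 4 each without oridonin replicate 1 or 2. For these settings fewer libraries enter, or replicate differences shrink by construction. The cause was otherwise not tested.

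With the deposited values, 13 members were called in vector over WT, 1 in oridonin over vector and 8 in oridonin over WT, and 2312, 76 and 996 genes of all. At an unadjusted p under 0.05 there were 19, 10 and 21 members. For the settings of this section the share of all genes at this p is not given. A rise in such counts can therefore not be read as a trait of the members. With only the libraries of the groups compared, 2 members and 103 genes were called in vector over WT, 1 gene in oridonin over WT, and 14 members had an unadjusted p under 0.05 in the latter. Scaling to the total without mitochondrial genome genes moved the member median of vector over WT to -0.029. Leaving out 1 library at a time gave 0 to 2 called members in vector over WT and in oridonin over WT and 0 in oridonin over vector. The 2 came without an oridonin library: Actc1 and Myom2, except that in oridonin over WT without oridonin 1 they were Actc1 and Xirp2. Over all genes the calls were 2 to 107, 3 to 32 and 0 to 24. Members at an unadjusted p under 0.05 were 8 to 19, 2 to 9 and 6 to 14, with 19 in vector over WT and 9 in oridonin over vector without vector 1, and 7 in the latter without vector 2. In oridonin over WT there were 14 without vector 1 and 13 without vector 2. The WT library could not be left out.

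Deviations from the group mean of same-numbered Tet2+/- libraries had a correlation of -0.30 across 12734 genes. This cannot tell whether the replicate numbers pair the libraries. It rests on 2 libraries per group, whose differences also followed length in opposite directions. With the replicate number as a block, 10, 9 and 6 genes were called in the 3 comparisons and 0 members, and 5 members had an unadjusted p under 0.05 in vector over WT. With a crossed replicate block, chosen after seeing the data, 432, 44 and 184 genes were called, with 5 members in vector over WT, 0 in oridonin over vector and 4 in oridonin over WT.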
